A study of Mus musculus with 10 samples.

Results

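The genes described here are the mouse Wnt ligands and the proteins that receive, block or pass on their signal. Members were chosen by gene symbol alone: Wnt ligands, Frizzled receptors (Fzd), the co-receptors Lrp5 and Lrp6, the receptors Lgr4, Lgr5 and Lgr6, the secreted antagonists of the Dkk and Sfrp families and Wif1, Axin1 and Axin2, and Lef1 with the Tcf7 family. The rule found 48 of the 18193 genes measured: 19 ligands, 10 Frizzled receptors, 2 LRP co-receptors, 3 Lgr receptors, 9 secreted antagonists, 2 Axins and 3 TCF/LEF factors. Each gene was read from its brightest probe set, and no gene was left out for a low value.

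RNA of 10 cell samples was measured on Affymetrix arrays, 1 array a sample. All cells traced back to mice that carried the Oct4-eGFP reporter transgene OG2 and the Rosa26 neo/lacZ marker gene and had been crossed with ICR females. The 4 samples called brain NSC here were neural stem cells (NSC) taken from the adult brain of these mice. The 3 samples labelled induced pluripotent stem (iPS) cells were such NSC infected with a pMX-based retrovirus carrying mouse Oct4 cDNA as the single factor, moved to embryonic stem cell medium with leukaemia inhibitory factor (LIF), picked as Oct4-GFP positive colonies and expanded on irradiated embryonic fibroblasts. The 3 samples labelled iPS-derived NSC were NSC differentiated from those iPS cells. The labels number the samples of a group but do not say whether they came from separate cultures, clones or animals, so every p-value measures the spread between these samples, which may be technical.

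Marker genes went against the labels of both groups of reprogrammed cells. Pou5f1, which encodes Oct4, had a mean level on the log2 scale of 13.29 ± 0.25 (SD, n = 3) where the label was iPS-derived NSC, 4.66 ± 0.15 (n = 3) where it was iPS and 4.55 ± 0.05 (n = 4) in brain NSC. Zfp42, a marker of naive pluripotent cells, had means of 12.44, 3.54 and 3.50 in the same order. The neural stem cell genes Fabp7 and Olig2 ran the other way, with means of 4.43, 14.17 and 14.45 for Fabp7 and of 6.53, 12.78 and 12.47 for Olig2. The mean level of 11 pluripotency markers lay at 11.36 to 11.44 on the arrays labelled iPS-derived NSC and at 4.83 to 4.93 on all other arrays. That of 9 neural stem cell markers lay at 5.32 to 5.43 on the former and at 10.13 to 10.58 on the latter. Among these 9, Hes5 was lower in the libraries labelled iPS than in brain NSC, with a difference of -3.58. Since the markers went against the labels, the groups are named as the libraries labelled iPS or iPS-derived NSC throughout. The deposited labels were kept, and every direction below refers to the label and not to the kind of cell the label names.

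Wnt proteins are secreted, lipid-modified ligands that bind a Frizzled receptor together with LRP5 or LRP6. The bound receptors halt the destruction complex, built on Axin, APC and the kinase GSK3, so that beta-catenin accumulates and acts with TCF/LEF factors in the nucleus. Other Wnt proteins signal through Frizzleds with ROR or RYK co-receptors and the planar polarity proteins, without beta-catenin. In the brain the pathway is known for patterning the forebrain and for regulating the division of neural stem cells, and in mouse embryonic stem cells for supporting self-renewal, where TCF7L1 acts as a repressor.

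The libraries labelled iPS-derived NSC differed from both other groups in Wnt genes of every role but the LRP co-receptors and the Axins. Wnt5a, Wnt7a and Wnt7b, the Frizzled receptors Fzd1, Fzd2, Fzd3, Fzd8 and Fzd9, the R-spondin receptor Lgr5, the antagonist Wif1 and the transcription factor Tcf7l2 were lower there than in the libraries labelled iPS and lower than in brain NSC. The antagonists Dkk1 and Sfrp2, the receptors Fzd5 and Fzd7 and the transcription factor Lef1 were higher there in both comparisons. A call required at least a 2-fold difference and, from limma, a Benjamini-Hochberg adjusted p under 0.05 over all 18193 genes. Against the libraries labelled iPS, 17 of 48 members were called (35.4%), beside 25.3% of all genes: 6 were higher (12.5%, beside 10.8% of all genes) and 11 lower (22.9%, beside 14.4%). Against brain NSC, 18 of 48 were called (37.5%), beside 25.4% of all genes: 6 were higher (12.5%, beside 11.3%) and 12 lower (25%, beside 14%). These comparisons share the arrays labelled iPS-derived NSC, so the likeness of their calls is no independent repeat. No member was called between the libraries labelled iPS and brain NSC, where limma called 1.84% of all genes (0.951% higher and 0.89% lower in the libraries labelled iPS) and 11 of 48 members had an unadjusted p under 0.05 (22.9%, beside 32.5% of all genes).

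**Figure D1:**
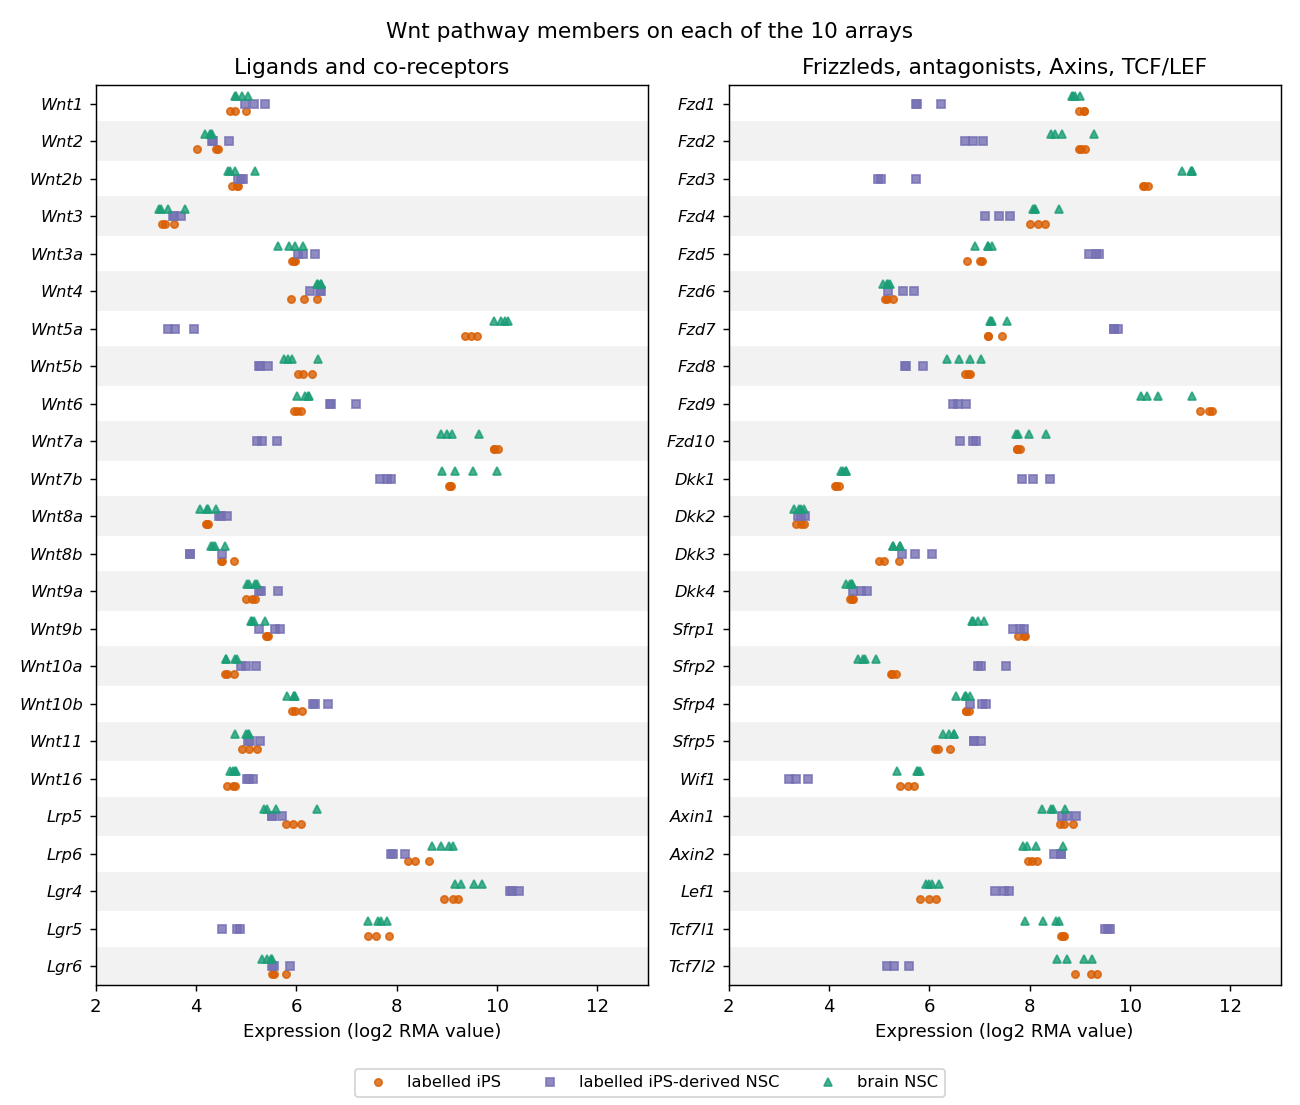
Log2 RMA value (x axis) of each of the 48 members (y axis) on each of the 10 arrays, with orange circles for the 3 arrays labelled iPS, purple squares for the 3 labelled iPS-derived NSC and green triangles for the 4 of brain NSC. Wnt5a and Fzd3 show the purple squares far to the left of both other groups, Dkk1 far to the right, and most of the dim ligands show all 10 arrays close together. Levels are to be read within a gene and not between genes.

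The plot of all members by array shows how uneven the set was. The median difference over the 48 members was 0.13 on the log2 scale against the libraries labelled iPS and 0.21 against brain NSC, beside 0.12 and 0.13 over all genes. The median size of the difference was 0.55 and 0.59, beside 0.42 and 0.41 over all genes. No detection calls were used, so a low level is set here against all probe sets of an array, whose lower quartile lay at 4.22 to 4.41 and whose median at 5.65 to 5.72. Dkk2 and Wnt3 lay below that lower quartile in every group, 15 members lay below the median in every group, and Axin1, Lgr4 and Tcf7l1 lay above the upper quartile in every group. In cells measured in bulk, fewer cells of a type and less RNA per cell cannot be told apart.

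RefSeq promoters of the assembly GRCm38.p6 were matched for 32 of the 48 members. The 250 bases before each start were searched on both strands for the TCF/LEF core, which is CTTTG followed by 2 letters that are each A or T. They were also searched for the POU octamer ATTTGCAT. The third word was the SOX core CATTGTT. No matches overlap in the sequences shown. Of 39 member promoters, 6 held a TCF/LEF word (15.4%, beside 14.8% of all 32851 promoters), 2 held the octamer (5.13%, beside 1.6%) and 2 held the SOX word (5.13%, beside 3.29%). The 5 promoters below are shown because each belongs to a member that was higher in the libraries labelled iPS-derived NSC in at least 1 comparison and holds a TCF/LEF word or the octamer; they were chosen after the values were seen. Capitals mark the matched words, and each runs 5′ to 3′ on the strand of its gene.
Dkk1 promoter, GRCm38.p6 chr19:30549497-30549746 (minus strand): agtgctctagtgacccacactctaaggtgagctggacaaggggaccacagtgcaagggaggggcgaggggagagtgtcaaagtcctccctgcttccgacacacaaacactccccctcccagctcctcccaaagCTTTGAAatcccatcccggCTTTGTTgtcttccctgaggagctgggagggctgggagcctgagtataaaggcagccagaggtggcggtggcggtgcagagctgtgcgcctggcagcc
Fzd7 promoter, GRCm38.p6 chr1:59481897-59482146 (plus strand): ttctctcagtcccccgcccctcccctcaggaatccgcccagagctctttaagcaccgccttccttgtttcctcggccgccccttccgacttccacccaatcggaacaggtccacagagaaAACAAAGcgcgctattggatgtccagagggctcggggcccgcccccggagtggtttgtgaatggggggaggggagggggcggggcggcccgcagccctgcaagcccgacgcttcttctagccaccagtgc
Lef1 promoter, GRCm38.p6 chr3:131156044-131156293 (plus strand): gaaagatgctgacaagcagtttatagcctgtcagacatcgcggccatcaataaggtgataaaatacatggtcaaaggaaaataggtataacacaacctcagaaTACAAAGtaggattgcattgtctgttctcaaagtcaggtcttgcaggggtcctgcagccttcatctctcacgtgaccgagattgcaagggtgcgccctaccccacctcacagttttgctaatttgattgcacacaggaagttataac
Sfrp2 promoter, GRCm38.p6 chr3:83766071-83766320 (plus strand): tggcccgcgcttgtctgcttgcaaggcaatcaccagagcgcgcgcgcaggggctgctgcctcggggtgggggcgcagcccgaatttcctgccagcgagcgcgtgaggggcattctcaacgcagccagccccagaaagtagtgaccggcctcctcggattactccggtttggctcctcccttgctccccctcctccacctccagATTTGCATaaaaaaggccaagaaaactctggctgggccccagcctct
Lgr4 promoter, GRCm38.p6 chr2:109917397-109917646 (plus strand): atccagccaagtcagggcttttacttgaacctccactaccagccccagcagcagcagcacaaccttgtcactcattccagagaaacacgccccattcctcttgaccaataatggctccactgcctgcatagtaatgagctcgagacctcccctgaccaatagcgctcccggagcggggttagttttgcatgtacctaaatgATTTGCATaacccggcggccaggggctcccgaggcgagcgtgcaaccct
Dkk1 held 2 TCF/LEF words, the nearer of them 92 bases before the start. Fzd7 and the Lef1 promoter shown held 1 each on the opposite strand, at 124 and 141 bases before the start. The other Lef1 promoters, in windows from chr3:131110047, chr3:131110073 and chr3:131112541, held none of the searched words. Sfrp2 and Lgr4 held the octamer at 40 and 42 bases before their starts. Words were not confined to the higher members. Tcf7l2, which was lower, held a TCF/LEF word 8 bases before 1 start and the SOX word 97 bases before another. Fzd5 and Tcf7l1, which were higher, held none of the searched words. By call against brain NSC, a TCF/LEF word was in 3 of 9 promoters of higher members, 1 of 7 of lower members and 2 of 23 of members not called. A link between words and levels was not tested. A match describes letters in this window and is no evidence of binding.

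Among the ligands, 3 of 19 were called in the libraries labelled iPS-derived NSC against each other group, all lower (15.8%). That share is close to the 14.4% and 14% of all genes called lower, and under the 25.3% and 25.4% called in either direction. Wnt5a, a ligand best known for signalling without beta-catenin, measured 9.59, 9.35 and 9.48 on the arrays labelled iPS, 3.58, 3.96 and 3.45 on those labelled iPS-derived NSC, and 10.23, 10.16, 10.08 and 9.93 in brain NSC. The middle group was under the lowest quartile value of all arrays on each of its own, and the 3 groups did not overlap. The difference was -5.81 ± 0.13 (SE, adjusted p 2.18e-13) against the libraries labelled iPS and -6.44 ± 0.12 (adjusted p 3.82e-14) against brain NSC. At a level that low the size of such a difference is not exact, so no fold is given for Wnt5a. The same holds for Dkk1 and Wif1, and the places of these genes among the largest differences are not exact either.

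Wnt7a, a forebrain ligand known to act on neural progenitors and on brain vessels, measured 10.01, 9.94 and 9.94 in the libraries labelled iPS, 5.62, 5.21 and 5.31 in those labelled iPS-derived NSC, and 8.88, 9.11, 9.0 and 9.64 in brain NSC. All 3 groups stood apart, with brain NSC between the others. On its brightest probe set it was 24.0-fold lower in the libraries labelled iPS-derived NSC than in those labelled iPS (difference -4.58 ± 0.17, adjusted p 2.60e-11). It was 13.7-fold lower there than in brain NSC (-3.78 ± 0.16, adjusted p 8.05e-11). The other probe sets of Wnt7a did not show this fall, with 0.13 and 0.17 against the libraries labelled iPS and 0.24 and 0.34 against brain NSC. Its close relative Wnt7b had means of 9.06 ± 0.02 (SD, n = 3), 7.78 ± 0.11 (n = 3) and 9.39 ± 0.47 (n = 4), and was lower by the same comparisons (-1.28 ± 0.21, adjusted p 9.96e-05, and -1.62 ± 0.19, adjusted p 5.21e-06). On this probe set Wnt7b kept a level above the median of all probe sets in the group where it was lowest. Its other probe set did not. That probe set had means of 7.80, 4.83 and 7.97 in the same order of groups, with differences of -2.97 and -3.14.

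The other 16 ligands were called in no comparison, with differences between group means of -0.83 to 0.84. Their group means ran from 3.42 to 6.85, and 11 of the 19 ligands lay below the median of all probe sets in every group. Wnt6 and Wnt5b moved most among them: Wnt6 had means of 6.01, 6.85 and 6.16 in the libraries labelled iPS, those labelled iPS-derived NSC and brain NSC, and Wnt5b of 6.16, 5.33 and 5.98. Wnt3a, the textbook ligand of the beta-catenin branch, had means of 5.94, 6.17 and 5.89, and Wnt4 of 6.15, 6.41 and 6.45. Wnt10b stood at 6.00, 6.44 and 5.92. Wnt1, Wnt2, Wnt2b, Wnt3, Wnt8a, Wnt8b, Wnt9a, Wnt9b, Wnt10a, Wnt11 and Wnt16 were the 11 dim ligands, and a small change in them would be compressed on this scale.

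The Frizzled receptors, the membrane proteins that bind Wnt ligands, were called in 7 of 10 cases against the libraries labelled iPS, beside 25.3% of all genes, and in 8 of 10 against brain NSC, beside 25.4%. Their median difference was -1.05 and -1.10. They did not move one way, since Fzd5 and Fzd7 were higher in the libraries labelled iPS-derived NSC while 5 and 6 others were lower.

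Fzd3, known for axon guidance and planar polarity, measured 10.36, 10.26 and 10.28 in the libraries labelled iPS, 5.04, 5.74 and 4.98 in those labelled iPS-derived NSC, and 11.24, 11.23, 11.24 and 11.04 in brain NSC. No groups overlapped, and brain NSC was the highest. The differences of the libraries labelled iPS-derived NSC were -5.04 ± 0.16 (33.0-fold lower, adjusted p 6.74e-12) and -5.93 ± 0.15 (60.9-fold lower, adjusted p 5.62e-13). These sizes are those of the brightest probe set. The other probe sets of Fzd3 fell less, with -2.57 to -0.38 and -2.71 to -0.33. Fzd9, a receptor expressed in hippocampal progenitors, measured 11.41, 11.64 and 11.58, then 6.47, 6.58 and 6.73, then 10.22, 10.56, 10.35 and 11.25 in the same order of groups. Here the libraries labelled iPS were the highest, and none of the groups overlapped. Its differences were -4.95 ± 0.20 (30.9-fold lower, adjusted p 8.60e-11) and -4.00 ± 0.19 (16.0-fold lower, adjusted p 3.40e-10).

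Fzd1 measured 8.99, 9.08 and 9.08 in the libraries labelled iPS, 5.75, 6.24 and 5.72 in those labelled iPS-derived NSC, and 8.91, 8.86, 8.85 and 9.0 in brain NSC. The middle group lay far below both others, which overlapped each other. It was 8.83-fold lower than in the libraries labelled iPS (-3.14 ± 0.13, adjusted p 6.18e-11) and 7.99-fold lower than in brain NSC (-3.00 ± 0.12, adjusted p 4.24e-11). Fzd2, with means of 9.04 ± 0.06, 6.89 ± 0.18 and 8.71 ± 0.40, was 4.43-fold and 3.54-fold lower. Fzd8 had the smallest called falls, at -1.13 ± 0.15 and -1.06 ± 0.14, and Fzd10 was called only against brain NSC, at -1.15 ± 0.14, with -0.96 ± 0.15 against the libraries labelled iPS (-1.02 without replicate 1 of those labelled iPS-derived NSC). The Fzd8 and Fzd10 calls are the least firm of the family, since with the mean of all probe sets Fzd8 stood at -0.63 and -0.65 and Fzd10 at -0.65 against brain NSC, under 2-fold. Against brain NSC, Fzd8 also missed 2-fold at -0.95 without brain NSC replicate 4, and Fzd10 at -0.96 after a further quantile normalization.

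Fzd7, a receptor linked with self-renewal of pluripotent cells, measured 7.16, 7.45 and 7.17 in the libraries labelled iPS, 9.75, 9.68 and 9.68 in those labelled iPS-derived NSC, and 7.24, 7.55, 7.21 and 7.23 in brain NSC. The lower groups overlapped, and every array of the middle group was above them. It was 5.44-fold higher (2.44 ± 0.12, adjusted p 3.62e-10) and 5.26-fold higher (2.39 ± 0.11, adjusted p 1.89e-10). Fzd5 measured 6.75, 7.04 and 7.02, then 9.31, 9.38 and 9.18, then 7.24, 7.17, 7.18 and 6.91. It showed the same order, with differences of 2.36 ± 0.12 (5.12-fold, adjusted p 5.61e-10) and 2.17 ± 0.11 (4.50-fold, adjusted p 5.73e-10). Fzd4, with means of 8.16, 7.37 and 8.21, and Fzd6, with means of 5.18, 5.45 and 5.16, were called in no comparison.

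The LRP co-receptors, which join Frizzled to start beta-catenin signalling, were not called. Lrp6 had means of 8.41 ± 0.21 (SD, n = 3), 7.99 ± 0.15 (n = 3) and 8.93 ± 0.19 (n = 4) in the libraries labelled iPS, those labelled iPS-derived NSC and brain NSC, and Lrp5 of 5.94, 5.58 and 5.69. Lrp6 differed by -0.94 ± 0.13 between the libraries labelled iPS-derived NSC and brain NSC, and past 2-fold without brain NSC replicate 4 (-1.02) or replicate 2 of the libraries labelled iPS-derived NSC (-1.03). Its other probe set had -0.05 in this comparison. The Lgr receptors bind R-spondins, secreted proteins that keep Frizzled at the cell surface. Lgr5, a stem cell marker in several epithelia, measured 7.42, 7.84 and 7.58 in the libraries labelled iPS, 4.81, 4.87 and 4.52 in those labelled iPS-derived NSC, and 7.43, 7.80, 7.62 and 7.69 in brain NSC. The first and last group overlapped, and the middle one lay below both, by -2.88 ± 0.13 (adjusted p 3.19e-10) and -2.90 ± 0.13 (adjusted p 1.24e-10). Lgr4 was higher in the libraries labelled iPS-derived NSC, at 10.33 against 9.09 in those labelled iPS (1.24 ± 0.14, 2.36-fold, adjusted p 2.66e-06), and stood at 9.42 in brain NSC (0.91 ± 0.13, under 2-fold, but past it without brain NSC replicate 1). Averaged over all its probe sets, Lgr4 stood at 0.67 against the libraries labelled iPS, under 2-fold. Lgr6 had means of 5.62, 5.65 and 5.43 and was not called.

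Of the 9 secreted antagonists, 2 were higher and 1 lower in the libraries labelled iPS-derived NSC, against each other group. The higher share was 22.2%, beside 10.8% and 11.3% of all genes, and the lower share 11.1%, beside 14.4% and 14%. Dkk1, which binds LRP5 and LRP6 and keeps them from Frizzled, measured 4.20, 4.14 and 4.12 in the libraries labelled iPS, 8.41, 8.08 and 7.84 in those labelled iPS-derived NSC, and 4.33, 4.23, 4.35 and 4.27 in brain NSC. Both low groups lay near the lower quartile of all probe sets, and the middle group was far above them. Its differences were 3.96 ± 0.12 (adjusted p 5.02e-12) and 3.81 ± 0.12 (adjusted p 3.10e-12). Sfrp2, which resembles the ligand-binding part of Frizzled, measured 5.23, 5.26 and 5.34, then 7.04, 6.98 and 7.52, then 4.68, 4.57, 4.93 and 4.71 in the same order. No groups overlapped, and brain NSC was the lowest. It was 3.75-fold higher than in the libraries labelled iPS (1.91 ± 0.14, adjusted p 3.56e-08) and 5.49-fold higher than in brain NSC (2.46 ± 0.13, adjusted p 9.86e-10).

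Wif1, which binds Wnt ligands outside the cell, ran the other way, with means of 5.56 ± 0.14 (SD, n = 3), 3.38 ± 0.19 (n = 3) and 5.67 ± 0.21 (n = 4) and differences of -2.18 ± 0.14 (adjusted p 7.62e-09) and -2.30 ± 0.13 (adjusted p 1.86e-09). Dkk3 (means 5.16, 5.74 and 5.35), Sfrp4 (6.75, 7.0 and 6.69) and Sfrp5 (6.23, 6.93 and 6.41) each had their highest mean in the libraries labelled iPS-derived NSC without being called. Dkk2 (3.43, 3.45 and 3.41) and Dkk4 (4.45, 4.63 and 4.42) stayed dim in all groups. Sfrp1 is described with the comparison of the libraries labelled iPS and brain NSC.

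Inside the cell, the Axins were called in no comparison. Of the 3 TCF/LEF factors, 2 were called against the libraries labelled iPS and 3 against brain NSC, beside 25.3% and 25.4% of all genes. Axin2, a feedback target of beta-catenin, measured 8.04, 8.14 and 7.97 in the libraries labelled iPS, 8.62, 8.48 and 8.62 in those labelled iPS-derived NSC, and 8.14, 7.88, 7.95 and 8.67 in brain NSC. Brain NSC replicate 4 alone reached the level of the middle group, whose difference from the libraries labelled iPS was 0.53 ± 0.17 (adjusted p 0.014), under 2-fold. Axin1, the scaffold of the destruction complex, had means of 8.72, 8.77 and 8.46.

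Tcf7l2, a beta-catenin partner of the neural and intestinal lineages, measured 9.35, 8.90 and 9.22 in the libraries labelled iPS, 5.15, 5.30 and 5.59 in those labelled iPS-derived NSC, and 9.07, 8.74, 9.24 and 8.55 in brain NSC. The middle group stood below the others, which overlapped, by -3.81 ± 0.18 (14.0-fold lower, adjusted p 3.46e-10) and -3.55 ± 0.17 (11.7-fold lower, adjusted p 3.05e-10). Lef1, another partner of beta-catenin, had means of 5.97 ± 0.16, 7.46 ± 0.14 and 6.04 ± 0.11 and was 2.81-fold and 2.68-fold higher (1.49 ± 0.11, adjusted p 6.48e-08, and 1.42 ± 0.11, adjusted p 4.60e-08). Tcf7l1 had means of 8.65 ± 0.02, 9.55 ± 0.06 and 8.32 ± 0.31, higher than in brain NSC (1.24 ± 0.14, 2.36-fold, adjusted p 2.74e-06) and 0.90 ± 0.15 from the libraries labelled iPS, under 2-fold.

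**Figure D2:**
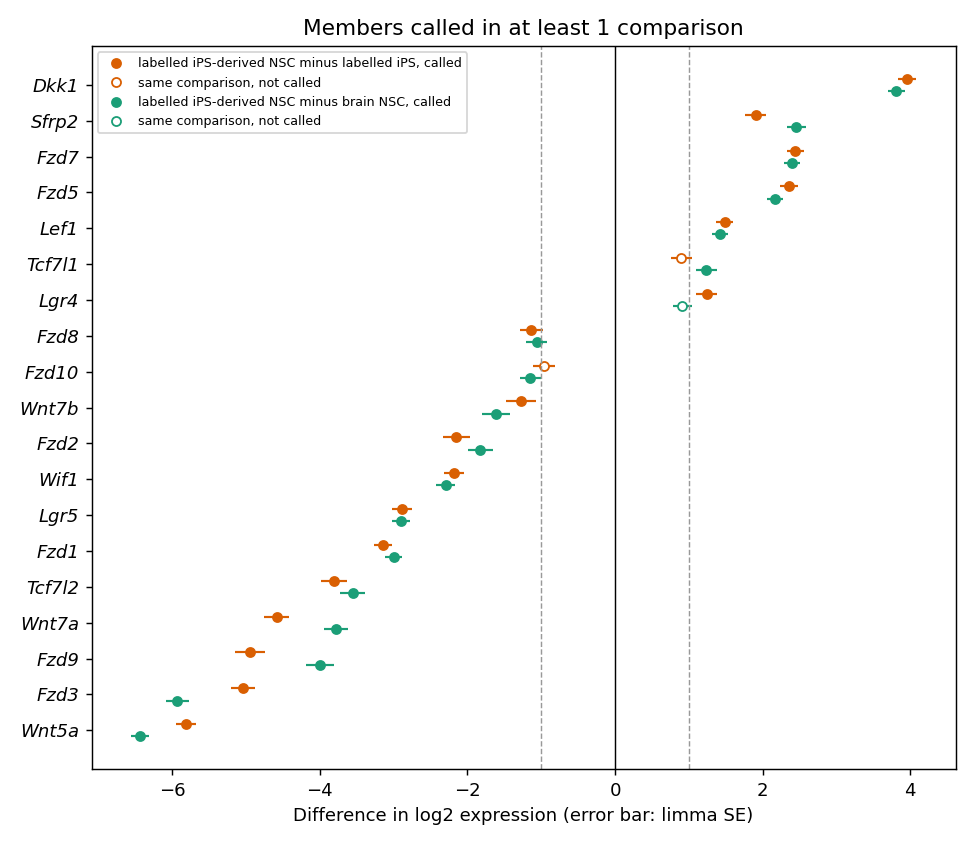
Difference ± SE (x axis, log2 units) of each member called in at least 1 comparison (y axis), as the libraries labelled iPS-derived NSC minus those labelled iPS (orange) or minus brain NSC (green), where filled points passed the call, open points did not, and dashed lines mark 2-fold. Wnt5a and Fzd3 lie farthest left and Dkk1 farthest right, and only Lgr4, Fzd10 and Tcf7l1 have 1 open point.

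Under 2-fold, further members passed the adjusted p of 0.05: 16 against the libraries labelled iPS, with differences of -0.96 to 0.90 and 11 of them higher, and 19 against brain NSC, with -0.94 to 0.91 and 16 of them higher. The same split was not counted over all genes, whose median difference was itself positive, at 0.12 and 0.13. No direction of the members is therefore read from it. Without a fold minimum, 33 of 48 members (68.8%) passed against the libraries labelled iPS and 37 of 48 (77.1%) against brain NSC, beside 61.1% and 62.7% of all genes. An unadjusted p under 0.05 was found for 35 of 48 (72.9%, beside 64.7%) and for 39 of 48 (81.2%, beside 66.1%). The arrays of a pair of groups did not overlap in 35 of 48 members (72.9%, beside 69.5% of all genes) and in 34 of 48 (70.8%, beside 61.3%).

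Probe sets of a gene did not always move alike. The 48 members had 95 probe sets, and 31 members had several. Among called members with several, all probe sets had the same sign in 12 of 14 against the libraries labelled iPS and in 13 of 15 against brain NSC, and all were past 2-fold in 4 of 14 and 6 of 15. Lgr5 and Wnt7a were the exceptions in sign: the second probe set of Lgr5 had 0.45 and 0.11, and the other probe sets of Wnt7a had 0.13 and 0.17 against the libraries labelled iPS and 0.24 and 0.34 against brain NSC. Against brain NSC, the 4 probe sets of Wnt5a ran from -6.44 to -0.58, the 6 of Fzd3 from -5.93 to -0.33 and the 4 of Tcf7l2 from -3.55 to -0.33. Dkk1 had 3.81 and 1.64, Fzd5 had 2.17 and 3.15, and Fzd7 had 2.39 and 0.46. Fzd6, not called from its brightest probe set (0.29), had 0.53 and 1.47 on the others.

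**Figure D3:**
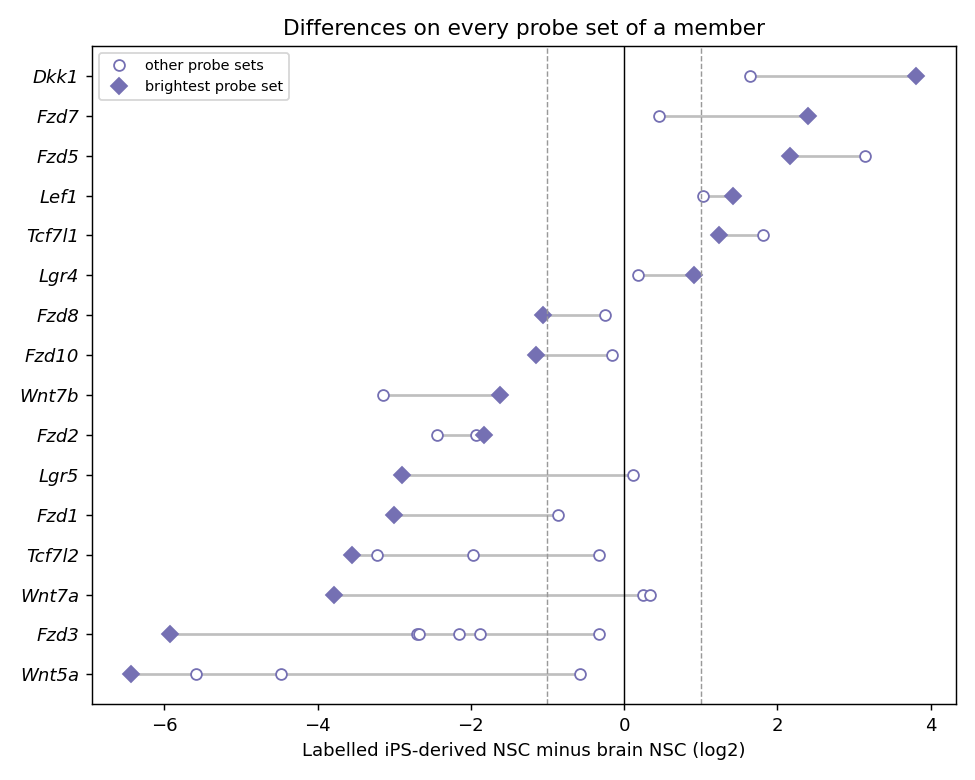
Difference of each member probe set between the libraries labelled iPS-derived NSC and brain NSC (x axis, log2 units) for the members with several probe sets that were called in at least 1 comparison (y axis), with diamonds for the brightest probe set, open circles for the others and dashed lines at 2-fold. The probe sets of Fzd3 spread from -5.93 to -0.33 and those of Lgr5 and Wnt7a fall on both sides of 0.

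Between the libraries labelled iPS and brain NSC, the count of 0 members called is read against the 1.84% of all genes, a share too low to make 0 of 48 a result about the members. Of 48 members, 10 had arrays that did not overlap between these groups (20.8%, beside 28.3% of all genes). Without a fold minimum, 7 of 48 members passed the adjusted p (14.6%, beside 20.4% of all genes): Fzd9, Sfrp1, Wnt7a and Sfrp2 were higher in the libraries labelled iPS, and Fzd3, Wnt5a and Lrp6 lower. The array values of these 7 are given because they passed, a choice made after the values were seen. The range of differences over all 48 members was -0.89 to 0.95.

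Fzd9 had the largest, at 0.95 ± 0.19 (adjusted p 0.00384), and its brain NSC arrays spread from 10.22 to 11.25, with replicate 4 the highest. Without that array the difference was 1.17 ± 0.11 (adjusted p 7.32e-06), past 2-fold, and without replicate 1 of the libraries labelled iPS it was 1.02 (adjusted p 0.0118). Sfrp1, an antagonist of the Frizzled-like family, measured 7.89, 7.77 and 7.91 in the libraries labelled iPS, 7.67, 7.89 and 7.81 in those labelled iPS-derived NSC, and 6.97, 6.87, 6.85 and 7.09 in brain NSC. Both reprogrammed groups overlapped, and brain NSC lay below them, by 0.91 ± 0.09 (adjusted p 3.65e-05) for the libraries labelled iPS and 0.85 ± 0.09 for those labelled iPS-derived NSC. The 5 probe sets of Sfrp1 had 0.58 to 1.10 between the libraries labelled iPS and brain NSC.

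Wnt7a and Sfrp2 differed by 0.80 ± 0.16 (adjusted p 0.00321) and 0.55 ± 0.13 (adjusted p 0.00944), and Fzd3 and Wnt5a by -0.89 ± 0.15 (adjusted p 0.00136) and -0.63 ± 0.12 (adjusted p 0.00341). Other probe sets of these genes gave other sizes. Those of Fzd3 ran from -0.41 to 0.05, and those of Wnt7a had 0.12 and 0.17. Those of Wnt5a had -1.11, -1.14 and -0.12, so some were past 2-fold. Lrp6 measured 8.64, 8.23 and 8.37 in the libraries labelled iPS and 9.04, 9.12, 8.88 and 8.70 in brain NSC, a difference of -0.52 ± 0.13 (adjusted p 0.0116), while its other probe set had 0.92.

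**Figure D4:**
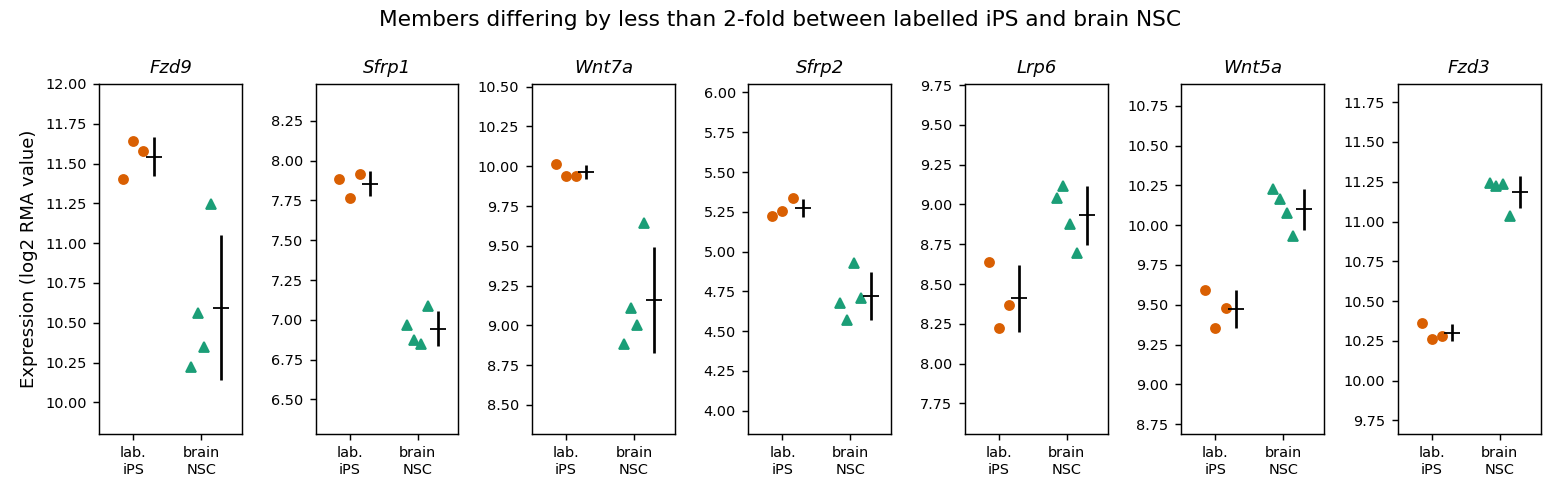
Log2 RMA value (y axis) of Fzd9, Sfrp1, Wnt7a, Sfrp2, Lrp6, Wnt5a and Fzd3 on the 3 arrays labelled iPS and the 4 of brain NSC (x axis), with the mean and SD of each group beside the points and 2.2 log2 units in every panel. In each panel all arrays of one group lie on one side of the other group.

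Some members lie on chromosomes whose genes were shifted together in the same comparison, and the part of this in their values was not tested. Over genes with a mean of at least 7, the 502 on chromosome 8 had a median difference of 0.44 between the libraries labelled iPS and brain NSC, with 452 of them above 0, and Sfrp1 lies there. The chromosome 8 median was 0.31 for the libraries labelled iPS-derived NSC against brain NSC, with 314 above 0. Against the libraries labelled iPS it was -0.07. The 274 on chromosome 14, which holds Wnt5a and Fzd3, had medians of -0.74 and -0.70 for the libraries labelled iPS-derived NSC against those labelled iPS and against brain NSC. Between the libraries labelled iPS and brain NSC the chromosome 14 median was 0.01, with 145 of 274 above 0.

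The wider pathway was described from 7 lists with 79 of 84 genes measured. Of the 79, 9 were higher and 18 lower in the libraries labelled iPS-derived NSC than in those labelled iPS (34.2% called, beside 25.3% of all genes), and 12 were higher and 16 lower than in brain NSC (35.4%, beside 25.4%). Between the libraries labelled iPS and brain NSC 4 were higher and 0 lower (5.06%, beside 1.84%). The median differences were 0.07, 0.12 and 0.02, beside 0.12, 0.13 and 0.01 over all genes. These lists were chosen with earlier results of these data known.

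Among 5 genes of ligand release and stability, 2 were higher and 1 lower against the libraries labelled iPS, and 3 higher and 1 lower against brain NSC (60% and 80% called, beside 25.3% and 25.4% of all genes). Wls, which carries Wnt proteins to the cell surface, measured 8.95, 9.07 and 9.07 in the libraries labelled iPS, 5.46, 5.57 and 4.76 in those labelled iPS-derived NSC, and 9.57, 9.67, 9.58 and 9.35 in brain NSC. The middle group lay below the rest, by -3.77 ± 0.17 and -4.28 ± 0.16 (13.6-fold and 19.4-fold). The glypicans Gpc3 (1.55 and 1.88) and Gpc4 (1.33 and 1.13), which hold Wnt at the cell surface, were higher, where Gpc4 against brain NSC lost its call with the mean of its probe sets (0.94), and Porcn, the enzyme that adds the Wnt lipid, was higher than in brain NSC (1.18, with 0.74 against the libraries labelled iPS, under 2-fold).

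Of 6 R-spondins and turnover enzymes, only Znrf3, an enzyme that removes Frizzled from the membrane, was called (16.7%, beside 25.3% and 25.4% of all genes), at -1.79 and -2.11. Its second probe set had 0.52 and 0.62, so its call was lost with the mean of both. Among 7 measured further secreted antagonists, Sostdc1, an inhibitor of both Wnt and BMP signals, was lower in the libraries labelled iPS-derived NSC than in those labelled iPS (-2.01 ± 0.10) and at 0.24 from brain NSC. It was the member of the lists that most set the libraries labelled iPS apart from brain NSC (2.26 ± 0.09, 4.78-fold higher, adjusted p 7.22e-09), with 6.97, 7.22 and 7.24 against 4.94, 4.91, 4.79 and 4.91. The groups stood clear of each other.

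Among 11 co-receptors and planar polarity genes, 1 was higher and 4 lower against the libraries labelled iPS, and 2 higher and 3 lower against brain NSC (45.5% called in both, beside 25.3% and 25.4% of all genes). The cadherin Celsr2 (-2.66 and -2.15) and its planar polarity partners Prickle2 (-2.37 and -2.09) and Vangl2 (-1.26 and -1.60) were lower in both. The WNT5A co-receptor Ror2 was higher in both (1.78 and 1.42), and Vangl1, the paralogue of Vangl2, was higher than in brain NSC (1.16, with 0.82 against the libraries labelled iPS, under 2-fold); these genes are named after their values were seen. Ryk, another Wnt co-receptor, was lower than in the libraries labelled iPS (-1.85) and at -0.92 against brain NSC. In the Dishevelled and destruction complex list, 2 of 17 genes were lower against the libraries labelled iPS (11.8%, beside 14.4% of all genes) and 3 of 17 against brain NSC (17.6%, beside 14%). These shares are near those of all genes. Gsk3b, the kinase that marks beta-catenin for destruction, had -1.23 ± 0.32 and -2.15 ± 0.29, Apc, another part of the complex, had -1.0 ± 0.09 and -1.23, and Dvl1, which relays the Frizzled signal, had -0.87, under 2-fold, and -1.28. Against the libraries labelled iPS, the Gsk3b call was lost with limma's treat at 1.5-fold (adjusted p 0.102). The Apc call there was lost after a further quantile normalization (-0.91) and without replicate 1 or 3 of either group (-0.99 to -1.0). In that comparison the other probe sets of Apc had -3.51, -1.04 and -3.47, all past 2-fold. Those of Gsk3b had -2.50, -1.97, -1.45, -0.61 and 0.08.

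Among 12 measured nuclear partners, 1 was higher and 2 lower against the libraries labelled iPS, and 1 higher and 1 lower against brain NSC (25% and 16.7% called, beside 25.3% and 25.4% of all genes). The co-repressor Ctbp2 was higher (1.64 and 2.18) and Ctbp1 lower (-1.99 and -1.34) in the libraries labelled iPS-derived NSC. Tle2, a co-repressor of TCF, was lower than in the libraries labelled iPS (-2.46) and was higher in these than in brain NSC (1.84 ± 0.19, adjusted p 4.17e-05). Of 21 measured Wnt target genes, 5 were higher and 7 lower against the libraries labelled iPS, and 6 higher and 7 lower against brain NSC (57.1% and 61.9% called, beside 25.3% and 25.4% of all genes), so the list did not move one way. Ccnd2, a G1 cyclin, measured 13.33, 13.35 and 13.41 in the libraries labelled iPS, 7.10, 6.84 and 6.15 in those labelled iPS-derived NSC, and 12.26, 12.40, 12.35 and 12.76 in brain NSC, far lower in the middle group (-6.67 ± 0.20 and -5.75 ± 0.18). The adhesion receptor Cd44 was lower too (-4.94 and -5.39), and Tfcp2l1, a transcription factor of naive pluripotent cells, was higher (5.66 and 5.30). The other probe sets of Tfcp2l1 did not show this. They had 0.08 and -0.005 against the libraries labelled iPS, and 0.06 and 0.003 against brain NSC. Id2, an inhibitor of differentiation factors, and Twist1 were higher in the libraries labelled iPS than in brain NSC (1.93 ± 0.10 and 1.45 ± 0.17), and the 2 other probe sets of Id2 had 1.17 and 0.43.

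Values that moved with the groups across the whole series stand beside these results, and their part in them was not tested. The mean level of 10 feeder fibroblast markers was 7.49, 7.20 and 6.62 in the libraries labelled iPS-derived NSC and 5.54 to 5.63 on all other arrays, where the group means of Col3a1 and Lum were under the lower quartile. Against the libraries labelled iPS, 6 of these 10 were higher and 1 lower, and against brain NSC 7 were higher. Of all genes, 10.8% were higher and 14.4% lower against the libraries labelled iPS, and 11.3% and 14% against brain NSC. The same shares stand beside the counts of the marker lists that follow. Epithelial markers had a mean of 9.27 to 9.52 beside 4.94 to 5.14, with 4 and 5 of 5 higher, and mesoderm and endoderm markers 6.80 to 6.96 beside 4.91 to 5.07, with 4 and 5 of 6 higher. The means of other lists rested on few genes. Neuron markers had 6.72 to 6.81 beside 4.97 to 5.13, where only Stmn2 and Tubb3 of 6 were higher, and the median difference was 0.36 and 0.38. Endothelial markers had 5.83 to 6.06 beside 4.54 to 4.79, where only Pecam1 of 4 was higher, and microglia markers 5.23 to 5.45 beside 4.77 to 5.02, where only Cd68 of 5 was. Astrocyte markers had 5.21 to 5.36 beside 6.07 to 6.31, where S100b and Slc1a2 of 5 were lower, and the 4 oligodendrocyte markers lay at 6.46 to 6.77 on all arrays. The 3′ minus 5′ signal of Actb, a sign of RNA quality, was 0.15 to 0.43 in brain NSC, 0.42 to 0.57 in the libraries labelled iPS-derived NSC and 0.50 to 0.67 in those labelled iPS. Brain NSC replicate 4 stood slightly apart, with Pearson correlations of 0.990 to 0.992 with the other brain NSC arrays, beside 0.995 to 0.997 among those, and it was the highest of the 4 in 21 members and the lowest in 9.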

How the data were processed

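The deposited values are log2 levels of probe sets, which the authors made with RMA per the submitters' processing notes and with Bioconductor per the labels; versions are not given in the sources used here. Per the labels' protocols, 1 microgram of DNase-treated RNA entered biotin labelling. RMA corrects background and makes the arrays' distributions alike, so a shift shared by most genes would be largely removed and dim differences are compressed. The precision is limited by the number of arrays.

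Of 45101 probe sets, 64 were controls, and the platform annotation gave 1 symbol for 34945, several for 932 and none for 9160; only the 34945 were used. Of the 34945, 34741 matched a RefSeq gene table (GRCm38.p6) by Entrez identifier, which changed 0 symbols. Each gene was represented by the probe set with the highest mean over the 10 arrays.

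The fit used limma 3.58.1 under R 4.3.3 (lmFit and eBayes, 3 groups over 10 arrays, 7 residual and 5.95 prior degrees of freedom, two-sided, Benjamini-Hochberg over 18193 genes), and the code was tested on simulated data. A call needed an adjusted p under 0.05 and a 2-fold difference. Errors are SD over arrays for levels and moderated SE for differences. Alternatives were the mean of a gene's probe sets, no cross-hybridising probe sets, quantile normalization, median centring, genes reaching 6 only, no fold minimum, limma's treat at 1.5-fold, the arrays of a pair of groups alone, eBayes with trend, the replicate number as a block, and each array left out. Single array values are given for the 10 members of largest called difference, per comparison. Those of Axin2, which was not called, of Sfrp1 and Lrp6, and of the pathway genes Wls, Sostdc1 and Ccnd2 are given outside this rule. Pathway genes are named as up to 3 of the largest called differences per list and comparison, with Ror2 and Vangl1 added after their values were seen. Same-numbered samples correlated at -0.21 to 0.13 in their deviations from the group means, so the numbers were not taken to pair samples. The members and lists were chosen with earlier results of these data known. Figures and promoter searches used Python 3.11.15 with matplotlib 3.10.9, numpy 2.4.6 and pandas 2.3.3.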

Additional observations from a re-analysis of the deposited data

Results flagged for a closer look

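In brain NSC, the group of 4 arrays, 6 of the 48 members had 1 array whose gap to the nearest other passed Dixon's 95% critical value, which chance passes in about 1 group in 20. Fzd3 was lowest in replicate 4, at 11.04, with the others at 11.23 to 11.24. Fzd4 was highest in replicate 1, at 8.59, with the others at 8.06 to 8.11. Fzd7 was highest in replicate 2, at 7.55, with the others at 7.21 to 7.24. Wif1 was lowest in replicate 3, at 5.36, with the others at 5.76 to 5.81. Wnt10b was lowest in replicate 2, at 5.81, with the others at 5.94 to 5.97. Wnt9b was highest in replicate 1, at 5.37, with the others at 5.10 to 5.15. The outlying arrays were not the same one in each gene.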

How the results depend on the processing

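No member reversed its direction under any alternative where it was called. Of the called members, 15 of 17 against the libraries labelled iPS and 16 of 18 against brain NSC kept their call in every alternative that held them. Wif1, with group means of 5.56, 3.38 and 5.67, was left out where only genes reaching 6 were used. The exceptions, Fzd8, Lgr4 and Fzd10, are given with their values in the report. Members short of a call that gained one were, against the libraries labelled iPS, Tcf7l1 (1.09 with the mean of probe sets and 1.05 with quantile normalization), Wnt5b (-1.01 with the mean) and Fzd10 (-1.01 with median centring, and with treat), and, against brain NSC, Fzd4 (-1.11 with the mean), Sfrp1 (1.08 with quantile normalization, and with treat), Lgr4 and Lrp6 (with treat). Between the libraries labelled iPS and brain NSC, the 335 genes called became 223 with the mean of probe sets, 3704 with no fold minimum, 183 with treat at 1.5-fold, 537 with the replicate number as a block, and 296 to 537 with each array left out, where 537 came without brain NSC replicate 4. The 0 members called there became 7 with no fold minimum (4 higher, 3 lower) and 1, Fzd9, with the block; with each array left out there were 0 to 1, the 1 being Fzd9 without replicate 1 of the libraries labelled iPS or without brain NSC replicate 4. The 4 pathway-list genes called there became 24 with no fold minimum, 8 with the block and 4 to 8 with each array left out, where 8 came without brain NSC replicate 4. For the libraries labelled iPS-derived NSC against those labelled iPS, no fold minimum gave 11123 genes, 33 members (17 higher) and 56 list genes, and each array left out gave 4586 to 4644, 17 to 18 (6 higher and 11 to 12 lower) and 26 to 29. Against brain NSC, no fold minimum gave 11415 genes, 37 members (22 higher) and 58 list genes, and each array left out gave 4575 to 4702, 18 to 19 (6 to 7 higher and 12 to 13 lower) and 27 to 33. Among named pathway genes, calls of Apc, Gsk3b, Gpc4 and Znrf3 were lost as given in the report, Znrf3 at -0.64 and -0.75. The replicate block changed no other member's call than those of Fzd9 between the libraries labelled iPS and brain NSC (1.17, past 2-fold) and, for the libraries labelled iPS-derived NSC against brain NSC, of Fzd8 (-0.95, under 2-fold) and Lrp6 (-1.02, past 2-fold); number 4 exists in brain NSC alone, so the block takes that array out of the contrast. Scaling moved the median of all genes by under 0.1. Except where a cause is named, the cause was not tested.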
